A study of Mus musculus with 12 samples.

Results

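The GDNF family ligands and receptors were followed as 5 genes, Gdnf, Artn, Gfra1, Gfra2 and Ret, taken by symbol from the 56748 genes of the count table. The list was chosen with results of col1-ACLP against col1 and of col1-ACLP+SB against col1 already known, so the values of the members in these contrasts are given as a description without p-values. RNA had been sequenced from 12 libraries of wild-type 10T1/2 cells, an established mouse line of mesenchymal progenitors, with 4 libraries on each of 3 substrates. In every group the cells were starved of serum, kept in suspension for 1 h and then cultured for 18 h. The hydrogels had a stiffness of 12 kPa and a coat made from type I collagen (0.05 mg/ml). The col1 group had collagen alone, the col1-ACLP group had collagen polymerized with 30 nM recombinant ACLP (aortic carboxypeptidase-like protein, a secreted protein that binds collagen), and the col1-ACLP+SB group had the same coating plus 5 µM SB431542, a kinase inhibitor of ALK5 (the type I TGFβ receptor). No group received SB431542 on collagen without ACLP, and all libraries came from a single cell line. The study called the libraries of a group biological replicates, without saying in the sources used here whether they were separate cultures, so the spread given is that between libraries.

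The GDNF family are secreted, distant relatives of TGFβ. A dimeric ligand binds a GFRα protein held on the membrane by a lipid anchor, and this pair brings together RET, the receptor tyrosine kinase that carries the signal into the cell. GDNF binds mainly GFRα1, neurturin mainly GFRα2 and artemin mainly GFRα3. Mesenchyme is known as a source of GDNF for tissues that carry RET, such as the ureteric bud of the kidney and the neural crest cells of the gut.

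The genes for the ligands were Gdnf (ENSMUSG00000022144) at chr15:7840327-7867056 on the plus strand, with 3 exons in its canonical transcript, and Artn (ENSMUSG00000028539) at chr4:117783359-117786960 on the minus strand, with 6 exons. The genes for the GFRα receptors were Gfra1 (ENSMUSG00000025089) at chr19:58224036-58444341 on the minus strand, with 11 exons, and Gfra2 (ENSMUSG00000022103) at chr14:71127560-71217278 on the plus strand, with 9 exons. Ret (ENSMUSG00000030110) lay at chr6:118128706-118174679 on the minus strand, with 19 exons. All positions are on GRCm39. Gfra1 and Gfra2 overlapped antisense long noncoding RNA genes, and a strand setting for counting was not given in the sources used here. Of these, Gm16277 under the 3′ end of Gfra1 had 0 counts in all 12 libraries, while Gm41876 at its 5′ end and Gm34588 within Gfra2 had no row of their own in the table.

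The promoters of Gfra1 and Artn are shown because these members were called against col1, in opposite directions. Each is the 250 bases 5′ of the start of the Ensembl canonical transcript, read 5′ to 3′ on the strand of the gene from GRCm39 with the GENCODE vM39 annotation. Capitals mark a match to the AP-1 motif TGANTCA, which begins 117 bases before the start of Gfra1.
Gfra1, chr19:58444347-58444596, minus strand: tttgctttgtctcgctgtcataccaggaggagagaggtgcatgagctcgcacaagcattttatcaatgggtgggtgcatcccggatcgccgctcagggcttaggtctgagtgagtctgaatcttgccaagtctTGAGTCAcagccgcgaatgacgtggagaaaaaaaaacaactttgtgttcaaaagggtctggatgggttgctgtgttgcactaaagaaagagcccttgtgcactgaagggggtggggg
Artn, chr4:117786994-117787243, minus strand: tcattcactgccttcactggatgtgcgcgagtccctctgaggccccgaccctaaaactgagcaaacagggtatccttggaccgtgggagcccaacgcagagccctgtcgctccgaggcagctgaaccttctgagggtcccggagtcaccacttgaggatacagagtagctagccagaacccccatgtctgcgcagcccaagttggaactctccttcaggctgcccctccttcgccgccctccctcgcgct
The other motifs searched on both strands were GGAATG for TEAD factors, GTCTAGAC for SMAD factors and the CArG box of serum response factor, and none of these motifs contains another. Over the promoters of all 5 members the AP-1 match in Gfra1 was the only match. Among 21630 promoters of the same length, the shares with a match were 6.19% for AP-1, 12.1% for TEAD, 0.24% for SMAD and 1.41% for CArG. The GC content was 71.2% in Gdnf, 72.8% in Gfra2, 61.2% in Artn, 53.2% in Ret and 51.2% in Gfra1, against a median of 53.2% over all promoters. Gdnf and Gfra2 each held 27 CpG pairs against a median of 8.

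All 5 members passed the filter on low counts and were among the 16465 genes tested. Totals ran from 29246154 to 52201922 counts per library, and the 18 replicate pairs differed beyond counting error (chi-square over its degrees of freedom from 7.32 to 19.7). Levels are CPM (reads of the gene scaled to a fixed library total) with TMM scaling unless given per length. All 8 mesenchymal markers were tested, and they moved in both directions on col1-ACLP: the collagen genes Col1a1 (log2 fold change 0.82) and Col1a2 (0.65) were called higher, where 2.61% of all tested genes were, and Pdgfra (−0.76) and Lum (−1.76) lower, where 2.36% were. By the edgeR adjusted p alone 2 were higher and 4 lower, beside 17.9% of all tested genes in either direction. The sum over the list, to which Col1a1, Col1a2 and Vim add most, ran from 25428 to 26341 CPM on col1, from 35184 to 43425 on col1-ACLP and from 32137 to 37631 on col1-ACLP+SB. Col1 replicate 2 stood somewhat apart from its group, with a mean correlation of 0.964 with the other col1 libraries, against 0.973 for each of the others.

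Per length, as TPM (the share of transcripts after division by gene length), the members on col1 ran in the order Gfra1, Artn, Gdnf, Gfra2 and Ret. Gfra1 stood at 23.4 TPM ± 3.27 (SD, n = 4), above all col1 values of the other members. Artn was at 3.15 TPM ± 1.24, Gdnf at 1.65 TPM ± 1.08 and Gfra2 at 1.21 TPM ± 0.444, and neighbours among these overlapped. Ret was the lowest at 0.323 TPM ± 0.165, below every col1 value of Gfra2. Ranked by TPM over all libraries, Gfra1 stood at percentile 47.1 of the tested genes, Artn at 34.3, Gdnf at 12.5, Gfra2 at 11.3 and Ret at 1.29.

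On the ACLP substrates the top of this order closed up. Gfra1 was at 7.08 TPM ± 0.730 and Artn at 6.71 TPM ± 1.34 on col1-ACLP, and their ranges overlapped. With SB431542 they stood at 9.05 TPM ± 1.05 and 7.35 TPM ± 1.65, again overlapping. Ret stayed lowest, at 0.170 TPM ± 0.108 and 0.175 TPM ± 0.0744. The ligand transcripts changed places in 1 library only: Artn exceeded Gdnf per length in all but col1 replicate 2, with a ratio from 0.751 to 4.43 on col1, from 7.08 to 16.9 on col1-ACLP and from 4.54 to 35.3 on col1-ACLP+SB.

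**Figure D1:**
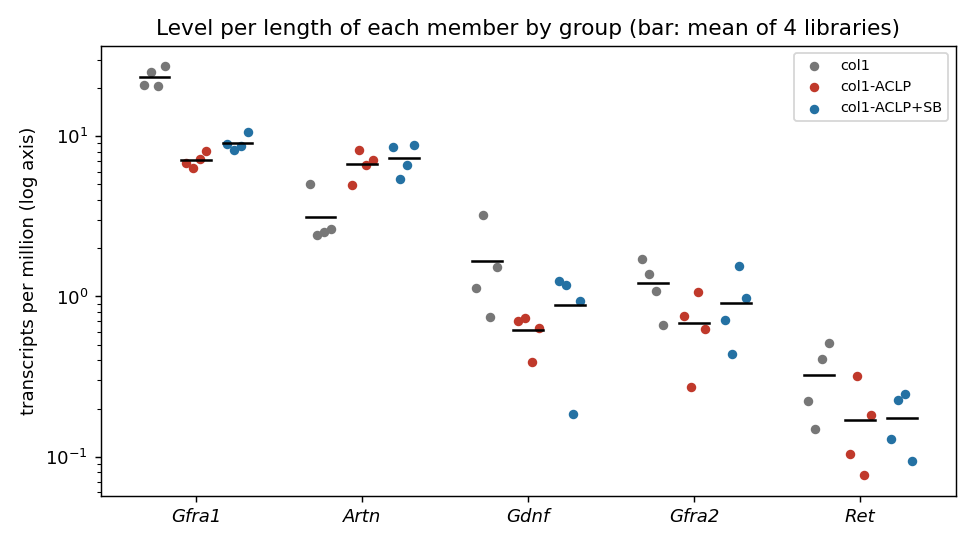
Level of each member per length, in TPM on a log axis, with 1 point per library and a bar at the mean of 4. Gfra1 lies highest on col1 at 23.4 TPM and meets Artn on col1-ACLP, at 7.08 and 6.71 TPM, while Ret is lowest in every group by its mean.

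Gdnf, the ligand that gives the family its name, was measured at low counts, from 9 to 116 reads per library. On col1 it was at 1.07, 3.07, 0.698 and 1.44 CPM in replicates 1 to 4. On col1-ACLP it was at 0.672, 0.691, 0.367 and 0.602 CPM, and on col1-ACLP+SB at 1.20, 1.14, 0.174 and 0.893 CPM. All col1-ACLP libraries lay below all col1 libraries, by a margin of 0.691 against 0.698 CPM, while the inhibitor group spanned the lowest value of the 12 and values within the col1 range. The log2 fold change was −1.42 (SE 0.551) on col1-ACLP and −0.90 (SE 0.538) on col1-ACLP+SB against col1. Without col1 replicate 2, which holds the highest value, these were −0.87 and −0.35, and without col1-ACLP+SB replicate 3, which holds the lowest, the second was −0.54.

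Artn, which encodes artemin, a ligand known for its action on sensory and sympathetic neurons, was higher on the ACLP substrates. On col1 it was at 3.11, 1.51, 1.55 and 1.63 CPM in replicates 1 to 4. On col1-ACLP it was at 3.12, 5.06, 4.07 and 4.39 CPM, and on col1-ACLP+SB at 5.38, 3.39, 4.01 and 5.49 CPM. Col1 replicate 1 lay close to the lowest libraries of the other groups, so that col1 and col1-ACLP were separated by 3.11 against 3.12 CPM and overlapped when levels were scaled by library size alone or given as TPM. All 4 libraries with the inhibitor lay above all col1 libraries on each of these scales. The log2 fold change was 1.09 (SE 0.259) on col1-ACLP and 1.23 (SE 0.258) on col1-ACLP+SB against col1, and 1.41 and 1.55 without col1 replicate 1.

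Gfra1, which encodes the receptor for GDNF, was the member with the highest counts, from 302 to 1637 reads per library. On col1 it was at 29.4, 35.6, 28.6 and 38.1 CPM in replicates 1 to 4. On col1-ACLP it was at 9.71, 8.90, 10.1 and 11.3 CPM, and on col1-ACLP+SB at 12.6, 11.7, 12.0 and 14.98 CPM. The groups did not overlap in any pairing, with col1 highest, col1-ACLP lowest and the inhibitor group between them. The fitted level was 3.30-fold lower on col1-ACLP than on col1, a log2 fold change of −1.72 (SE 0.116), and 2.57-fold lower on col1-ACLP+SB, a log2 fold change of −1.36 (SE 0.114). Of the members Gfra1 varied least between libraries, with a square root of its dispersion of 0.110 against 0.153 for the common value of all tested genes.

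Gfra2, which encodes the receptor for neurturin, was at 1.57, 1.27, 0.971 and 0.604 CPM on col1. It was at 0.703, 0.249, 0.969 and 0.567 CPM on col1-ACLP and at 0.655, 0.403, 1.39 and 0.893 CPM on col1-ACLP+SB. The 3 groups overlapped one another. The log2 fold changes against col1 were −0.83 (SE 0.526) and −0.39 (SE 0.515), and the latter ran from −0.76 to −0.16 as single libraries were left out. Of the summed Gfra1 and Gfra2 transcripts per length, Gfra1 made up 84.8% to 97.6% in the 12 libraries.

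Ret, the signalling receptor, was scarce, with 4 to 38 reads per library. It was at 0.392, 0.265, 0.698 and 0.883 CPM on col1, at 0.183, 0.553, 0.134 and 0.319 CPM on col1-ACLP and at 0.228, 0.403, 0.424 and 0.165 CPM on col1-ACLP+SB. The groups overlapped in each pairing. The log2 fold changes against col1 were −0.90 (SE 0.691) and −0.86 (SE 0.686). Without col1 replicate 4 these were −0.58 and −0.55, and without col1-ACLP replicate 2 the former was −1.40. By mean TPM, Gfra1 exceeded Ret 72.4 times on col1, 41.5 times on col1-ACLP and 51.8 times on col1-ACLP+SB. In single libraries this ratio ran from 50.6 to 166, from 19.9 to 93.2 and from 34.8 to 112 in the same order, so the groups overlapped.

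**Figure D2:**
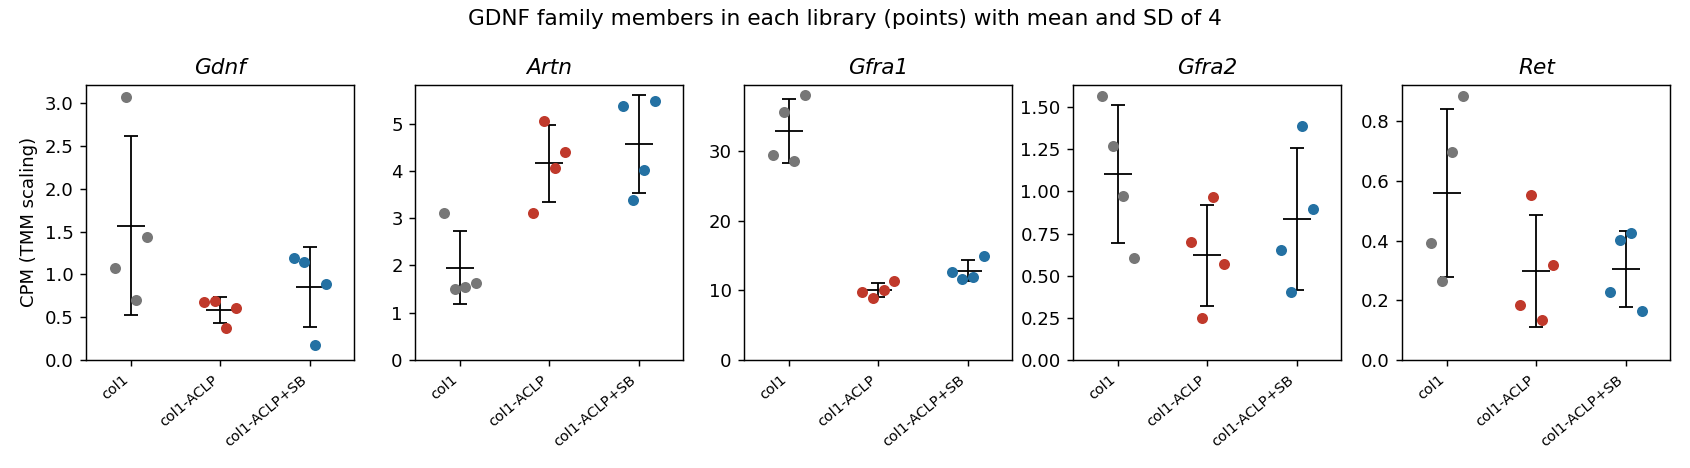
CPM with TMM scaling of each member in each library (points), with the mean and SD of 4 libraries per group and a vertical axis from 0 that differs between panels. Gfra1 falls into separate ranges of 28.6 to 38.1, 8.90 to 11.3 and 11.7 to 14.98 CPM, whereas the groups of Gfra2 and Ret overlap.

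A gene was called when the adjusted p-value of the edgeR quasi-likelihood test was under 0.05 and the log2 fold change beyond 0.58 in size, the thresholds of the study. On col1-ACLP against col1, 1 of 5 members was called higher (Artn), where 2.61% of all tested genes were, and 1 of 5 lower (Gfra1), where 2.36% were. On col1-ACLP+SB against col1, the calls were again Artn, with 1.27% of all tested genes called higher, and Gfra1, with 1.01% called lower. These calls belong to the contrasts that the members were chosen from. They describe the members, and nothing is read from their number.

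Without overlap of the libraries, 1 member was higher on col1-ACLP than on col1 (Artn, with TMM scaling only) beside 10.9% of all tested genes, and 2 were lower (Gdnf and Gfra1) beside 10.3%. On col1-ACLP+SB against col1, Artn was higher beside 6.7% and Gfra1 lower beside 6.32%. Gdnf, whose mean on col1-ACLP was 0.583 CPM ± 0.149 against 1.57 CPM ± 1.05 on col1, was not called. The dispersions of Gdnf, Gfra2 and Ret were wide, with square roots of 0.502, 0.466 and 0.558.

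Setting col1-ACLP+SB beside col1-ACLP addresses which levels moved with inhibition of ALK5 on the same coating. All 8 of its libraries also entered the contrasts that the members were chosen from, so its p-values are not independent of that choice. No member passed both thresholds: 0 of 5 were called higher, where 0.085% of all tested genes were, and 0 of 5 lower, where 0.0425% were. At an unadjusted p under 0.05 in edgeR, 1 of 5 members passed (Gfra1), where 12.8% of all tested genes did, and DESeq2 and limma-voom also called 0. Gfra1 was higher in all 4 inhibitor libraries than in all 4 without it, as were 3.65% of all tested genes, and 4.52% were lower in the same sense. Its log2 fold change was 0.36 (95% confidence interval 0.11 to 0.60), with an adjusted p of 0.142 in edgeR.

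The other members differed by less than the spread between libraries in this contrast, with wide intervals. Artn changed by 0.13 on the log2 scale (95% confidence interval −0.38 to 0.65; edgeR adjusted p = 0.904). Gdnf changed by 0.52 (−0.63 to 1.67; edgeR adjusted p = 0.794) and Gfra2 by 0.44 (−0.65 to 1.53; edgeR adjusted p = 0.822), the latter being 0.07 without col1-ACLP+SB replicate 3, 0.18 without col1-ACLP replicate 2 and 0.74 without col1-ACLP replicate 3. Ret changed by 0.04 (−1.41 to 1.49; edgeR adjusted p = 0.993), so that a change of 1 log2 unit either way was within its interval. As single libraries were left out, the value of Artn ran from 0.016 to 0.249 and that of Gdnf from 0.30 to 0.88.

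**Figure D3:**
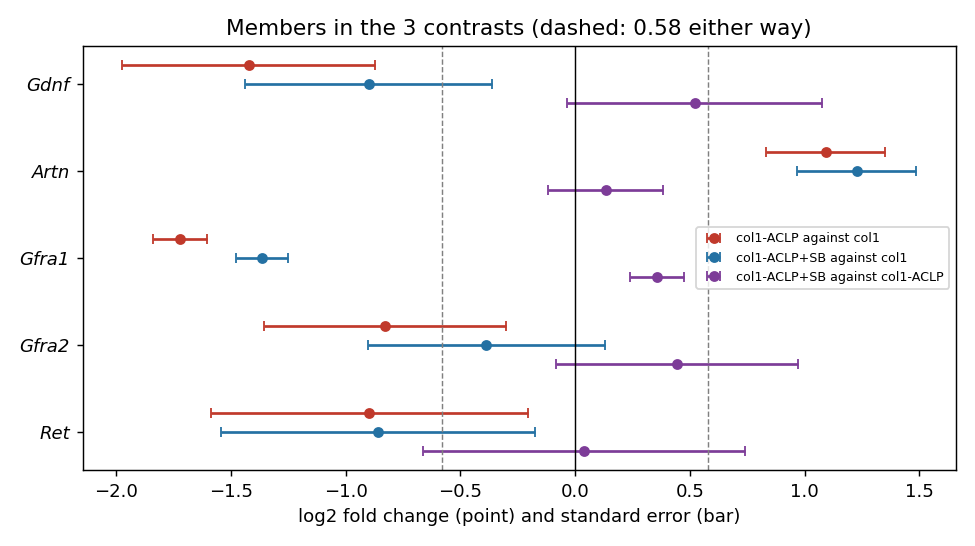
Log2 fold change (points) and standard error (bars) of each member in the 3 contrasts, with dashed lines at 0.58 either way. Gfra1 and Artn lie beyond the lines on opposite sides in both contrasts with col1, at −1.72 and 1.09 on col1-ACLP, and the bars of Gdnf, Gfra2 and Ret are long.

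The remaining ligands of the family had few reads, but the gene lengths of the table are short for them, and per length they stood among the members. Nrtn, which encodes neurturin, was at 4.77 TPM ± 2.25 on col1, 5.09 TPM ± 3.38 on col1-ACLP and 6.57 TPM ± 3.57 on col1-ACLP+SB (SD, n = 4), above the means of Artn, Gdnf and Gfra2 on col1 with overlap of its range with those of Artn and Gdnf. Its log2 fold change on col1-ACLP was 0.09 (edgeR adjusted p = 0.940). Pspn, which encodes persephin, was at 2.86 TPM ± 2.52 on col1 and at 0 counts in 2 libraries. Gdf15, a distant relative that signals through GFRAL and RET, was at 1.17 TPM ± 0.808 on col1. None of these 3 was called in any contrast by edgeR, DESeq2 or limma-voom, and 0 of 3 passed an unadjusted p under 0.05, where 28.3%, 19.9% and 12.8% of all tested genes did in the 3 contrasts. Gfra3, the receptor for artemin, and Gfral were at 0 counts in every library, which allows at most 0.0579 to 0.106 CPM depending on the library (3 counts, counting error only). Gfra4, the receptor for persephin, had at most 4 counts.

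Across 51 further genes of the pathway in 5 lists, 35 were tested. These lists too were chosen with results of these data known, so their counts and p-values are not independent evidence of a direction. On col1-ACLP against col1, 2 were called higher and 1 lower, 5.71% and 2.86% of those tested, where 2.61% and 2.36% of all tested genes were. On col1-ACLP+SB against col1, 1 was called lower, 2.86% of those tested beside 1.01% of all, and 0 higher beside 1.27%. With the inhibitor against without it 0 were called by edgeR, DESeq2 or limma-voom, where 0.085% of all tested genes were called higher and 0.0425% lower, while 7 had an unadjusted p under 0.05 in edgeR, as had 12.8% of all. By the adjusted p alone, 16 of 35 passed on col1-ACLP (7 higher, 9 lower) where 17.9% of all tested genes did. On col1-ACLP+SB 9 passed (3 higher, 6 lower) beside 9.13%, and between the ACLP groups 3 passed (2 higher, 1 lower) beside 1.48%. The median log2 fold change of the 35 genes was −0.070, −0.062 and −0.018 in the 3 contrasts, against −0.0099, 0.0046 and 0.0049 over all tested genes.

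Of 4 receptors and partners that bind family ligands without RET, or modulate it, 3 were well measured. Sdc3, the heparan sulfate proteoglycan syndecan-3, was higher on col1-ACLP (log2 fold change 0.46, edgeR adjusted p = 2.82e-07) and on col1-ACLP+SB (0.39, edgeR adjusted p = 8.25e-06). Gas1, a relative of the GFRα proteins that can associate with RET, was abundant, with means of 3320 CPM ± 237 (col1) and 2411 CPM ± 97.0 (col1-ACLP). Its log2 fold change was −0.46 on col1-ACLP (edgeR adjusted p = 6.78e-08) and −0.29 on col1-ACLP+SB (edgeR adjusted p = 1.41e-04). Ncam1, an adhesion molecule that serves as an alternative receptor of GDNF, was lower on col1-ACLP, with −0.42 (edgeR adjusted p = 0.0230), and had −0.27 on col1-ACLP+SB (edgeR adjusted p = 0.226). None of these 3 reached a log2 fold change of 0.58, and Sorl1, a sorting receptor for GDNF and GFRα1, had too few counts to be tested.

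Among adaptors and enzymes that act directly under RET, 15 of 18 were tested and 0 were called in any contrast by edgeR, DESeq2 or limma-voom. An unadjusted p under 0.05 in edgeR was reached by 5 on col1-ACLP, 4 on col1-ACLP+SB and 1 between the ACLP groups, where 28.3%, 19.9% and 12.8% of all tested genes reached it. On col1-ACLP, 5 of 15 passed the adjusted p alone (4 higher, 1 lower), beside 17.9% of all tested genes. The largest were Dok4, a docking protein, at 0.50 (edgeR adjusted p = 0.00722), and Pdlim7, a LIM domain protein that binds RET, at 0.40 (edgeR adjusted p = 4.65e-05). Pdlim7 was as high with the inhibitor, at 0.40 against col1 (edgeR adjusted p = 9.38e-05). Grb2, Sos1 and Ptpn11, shared by many receptor kinases, had log2 fold changes of 0.04, 0.02 and 0.05 on col1-ACLP.

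Of 9 genes known to depend on GDNF and RET in the ureteric bud, 6 were tested, and Etv5, an ETS transcription factor, had the largest change among those called. Etv5 was at 52.6, 50.2, 60.4 and 61.6 CPM on col1. It was at 23.2, 22.6, 20.9 and 18.6 CPM on col1-ACLP and at 24.2, 25.8, 29.8 and 31.2 CPM on col1-ACLP+SB. As for Gfra1, no groups overlapped, col1 was highest and the inhibitor group lay between. The log2 fold change was −1.40 (SE 0.0942, edgeR adjusted p = 2.66e-11) on col1-ACLP and −1.02 (edgeR adjusted p = 1.33e-08) on col1-ACLP+SB against col1. Between the ACLP groups it was 0.38 (edgeR adjusted p = 0.0426), and the adjusted p stayed under 0.05 in 9 of 20 alternatives, with a range of 0.00211 to 0.157.

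Its relative Etv4 was scarce and not called, with log2 fold changes of −1.03 (edgeR adjusted p = 0.204) and −1.54 (edgeR adjusted p = 0.0758) against col1. DESeq2 gave the latter an adjusted p of 0.0215. Met, the receptor for hepatocyte growth factor, was higher on col1-ACLP, at 20.0 CPM ± 1.30 against 12.6 CPM ± 0.891, a log2 fold change of 0.67 (edgeR adjusted p = 4.39e-04). With the inhibitor Met was not called against col1, with 0.35 on the log2 scale (edgeR adjusted p = 0.101) and libraries that overlapped. Dusp6, a phosphatase of ERK, was lower on col1-ACLP, with a log2 fold change of −0.45 (edgeR adjusted p = 0.0259), short of the fold threshold. Spry1, a feedback inhibitor of receptor kinases, had −0.56 (edgeR adjusted p = 0.387). These genes answer to other receptor kinases too, and the members' part in their levels was not tested.

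Of 14 genes that set the level of Gdnf in kidney mesenchyme, 8 were tested. Slit2, the secreted ligand that with Robo2 restricts the region of Gdnf expression, was higher on col1-ACLP, at 215 CPM ± 18.4 against 135 CPM ± 3.68 on col1. Its log2 fold change was 0.67 (edgeR adjusted p = 1.12e-07), and −0.41 between the ACLP groups (edgeR adjusted p = 0.00339). On col1-ACLP+SB it was 0.26 (edgeR adjusted p = 0.0218), with libraries that overlapped those on col1, and the adjusted p stayed under 0.05 in 16 of 20 alternatives (up to 0.123). The transcription factor Foxc1 and the secreted factor Gdf11 were lower on col1-ACLP, with log2 fold changes of −0.43 (edgeR adjusted p = 1.05e-05) and −0.44 (edgeR adjusted p = 0.00224). Robo2, Pax2 and Eya1 were not tested for want of counts.

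**Figure D4:**
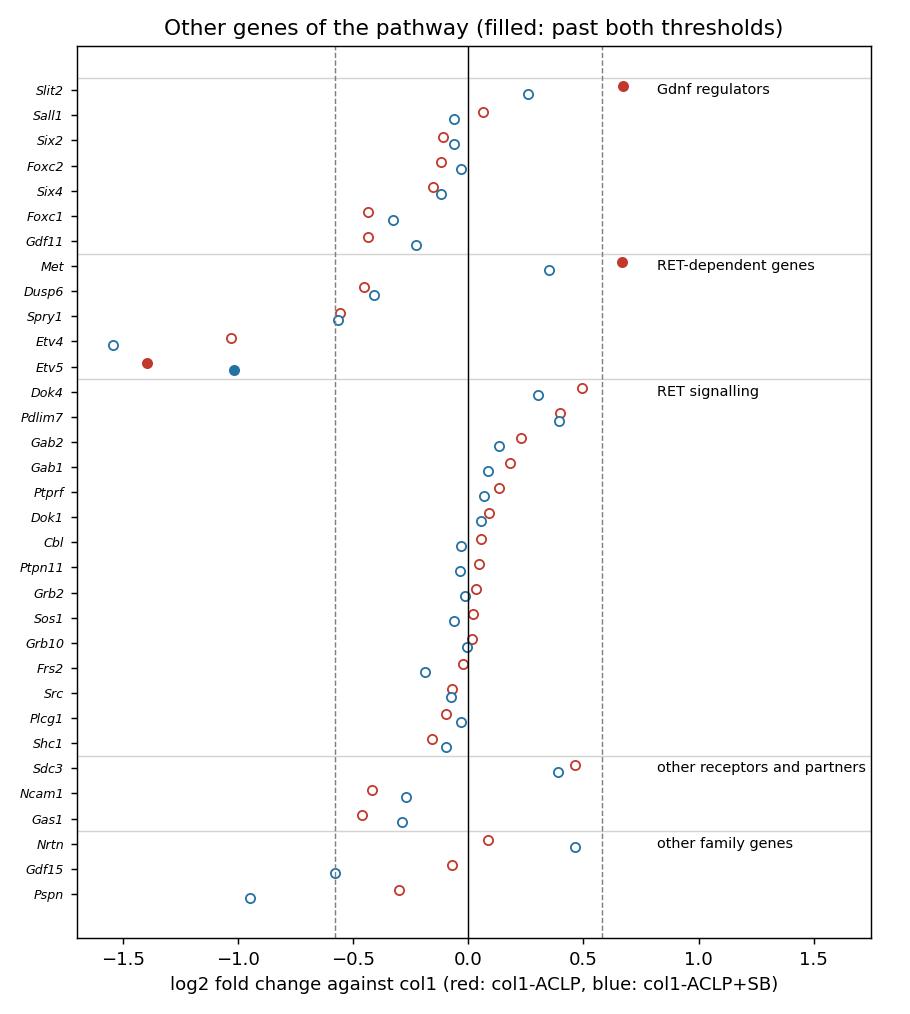
Log2 fold change against col1 of 33 of the 35 tested genes of the 5 lists on col1-ACLP (red) and col1-ACLP+SB (blue), with filled circles for genes past both thresholds and dashed lines at 0.58. Etv5 is filled on both substrates at −1.40 and −1.02, Met and Slit2 are filled on col1-ACLP at 0.67 each, and the RET signalling genes lie between the dashed lines, from −0.19 to 0.50.

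Genes most like each member were taken by Pearson's r of log2 CPM over the 12 libraries, which share the 3 groups, so that a gene that differs between groups as the member does will rank high. For Gfra1 they were Abca8b (0.986), a lipid transporter, Ezh1 (0.980), a Polycomb methyltransferase, Agpat3 (0.980), an acyltransferase of phospholipid synthesis, Akap12 (0.979), a scaffold of protein kinase A, and Fam20c (0.979), a kinase of secreted proteins, among 12956 candidates. For Artn they were Bnip3 (0.937), a mitochondrial protein induced by hypoxia, St7 (0.928), Kdelr3 (0.922), a receptor that retrieves proteins to the endoplasmic reticulum, Pkp4 (0.918) and Tmem254 (0.916). For Gdnf the highest were Epb41l1 (0.890) and Gm16364 (0.879), and the former was 0.821 without col1 replicate 2. Gfra2 was most like Grk2 (0.940) and Ret most like Gm16124 (0.900), both at levels where counting error is part of the pattern. By Spearman's rho, 2 of the 5 genes remained among the first 5 for Gfra1, 0 for Artn, 0 for Gdnf, 1 for Gfra2 and 2 for Ret.

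Between members, the correlation over the 12 libraries was strongest for Artn and Gfra1, at −0.82, and was −0.04 once the group means were removed. Gdnf and Gfra1 had 0.61 over all libraries and 0.36 within groups. Larger in size within groups were Gfra2 with Ret, at −0.65, and Gdnf with Gfra2, at −0.48, all of them scarce genes.

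Cells that usually carry RET or make these ligands were looked for by their markers. Of 12 neural and Schwann cell markers, 6 were tested, and Sox10, Elavl4 and Snap25 were at 0 in all libraries. The summed neural level ran from 23.8 to 26.8 CPM on col1, from 31.7 to 38.8 on col1-ACLP and from 28.9 to 34.4 on col1-ACLP+SB, with Tubb3, a tubulin of neurons and other cells, called higher on col1-ACLP (0.81, edgeR adjusted p = 2.33e-04). Epithelial markers summed to 2.34 to 4.84 CPM over the 3 groups, with Epcam at 0. Almost all of this came from Cdh1 (1.88 to 3.84 CPM) and Krt8 (0.114 to 1.62 CPM), and neither was called by edgeR in any contrast. Kdr had 1 count in all and Adgre1 was at 0. Endothelial markers summed to 5.06 to 8.30 CPM on col1, 7.52 to 9.85 on col1-ACLP and 4.30 to 6.41 on col1-ACLP+SB, almost all of it from Tek, with Pecam1 and Cdh5 too scarce to be tested. Tek was called lower between the ACLP groups (−0.86, edgeR adjusted p = 0.0116). Immune markers summed to 9.14 to 10.0 CPM, 5.32 to 8.72 CPM and 7.11 to 9.80 CPM in the same order, almost all of it from Cd68, with Ptprc at 12 counts over the 12 libraries. Cd68 had −0.49 on col1-ACLP (edgeR adjusted p = 0.0284), short of the fold threshold. The part of these cells in the members' levels was not tested. In these bulk libraries fewer cells of a type and less RNA per cell cannot be told apart.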

How the data were processed

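Poly(A) RNA of 12 libraries was sequenced in pairs of reads, and the authors mapped them with HISAT2 and deposited raw counts of reads per gene for 56748 genes, without normalization, beside each gene's position and length. The submitters' processing notes name mm10 and the study's methods GRCm39. The deposited positions overlapped GENCODE vM39 genes on GRCm39 for 55980 of 56017 shared identifiers (99.93%), so GRCm39 was used. The tool and strand setting for counting are not given in the sources used here, and the concentration of SB431542 is from the study's methods.

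The test on counts was that of edgeR 4.0.16 under R 4.3.3: filterByExpr kept 16465 genes, libraries were scaled by TMM, and glmQLFit and glmQLFTest were run on all 12 libraries with group as the only term, with Benjamini-Hochberg adjustment over all 16465 genes. At least 1 read in some library was found for 29792 genes. The study's thresholds (adjusted p under 0.05, log2 fold change beyond 0.58) were used, while the study itself used DESeq2. TPM was computed from counts and deposited gene lengths over all genes of the table. Log2 CPM for likeness had a prior count of 2 and candidates a mean of at least 1 CPM. Intervals and floors of 3 counts cover counting error and, for fits, the spread between libraries. The procedure was tested on simulated data before use.

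The members and the lists were chosen with earlier results of these data known. Named genes were the 5 members, listed genes past the thresholds or with the largest change in their list, and genes most like each member. All 5 of the latter were named for Gfra1 and Artn, and only the highest for Gdnf, Gfra2 and Ret. Other listed genes with values were named after their values were seen. Alternatives were RLE factors, library size alone, other filters, only the groups compared, a replicate block, DESeq2 1.42.0, limma-voom (limma 3.58.1), an exact permutation test, the adjusted p alone and each library left out. The scale used for overlap and the likeness without col1 replicate 2 were added after seeing the data. Same-numbered libraries had deviations that correlated at −0.07 to 0.04 over 12 pairs, which gives no sign of pairing by number. Promoters were read from GRCm39; protein sequences were not used here. Values of single listed genes are not all reported here.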

Additional observations from a re-analysis of the deposited data

Results flagged for a closer look

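Artn on col1 replicate 1 was at 3.11 CPM (119 reads), far from the other col1 libraries at 1.51 to 1.63 CPM. The gap to the nearest of them was 0.926 of the range of the group. Of 15 groups of 4 libraries examined over the 5 members, this was the only one past the limit of Dixon's test, which about 1 group in 20 passes by chance.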

How the results depend on the processing

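Against col1, each member kept the sign of its log2 fold change under all 20 alternatives per contrast. Leaving out single libraries gave −1.78 to −1.64 for Gfra1 on col1-ACLP, −1.45 to −1.29 on col1-ACLP+SB and 0.27 to 0.42 between the ACLP groups. Artn gave 0.98 to 1.41 and 1.12 to 1.55 against col1, Gdnf −1.66 to −0.87 and −1.14 to −0.35, Gfra2 −1.12 to −0.56 and −0.76 to −0.16, and Ret −1.40 to −0.58 and −1.09 to −0.55. Over all alternatives by edgeR, DESeq2 or limma-voom, the adjusted p of Gfra1 between the ACLP groups ran from 0.0795 to 0.372. Between the ACLP groups, the sign of Gdnf turned with limma-voom (−0.026), and that of Ret turned without col1-ACLP replicate 1 (−0.14), col1-ACLP replicate 3 (−0.20), col1-ACLP+SB replicate 2 (−0.11) or col1-ACLP+SB replicate 3 (−0.17), within a range of −0.20 to 0.53. The causes were not tested. DESeq2 gave no adjusted p for some of the scarce members in this contrast, and these have no value. A further setting gave no value for Ret, which had 7 alternatives besides the libraries left out, against 8 for Gdnf and Gfra2.

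By the adjusted p alone, 16, 9 and 3 of the 35 listed genes passed in the 3 contrasts, since the fold threshold was dropped. DESeq2 called 2 on col1-ACLP+SB (Etv4 beside Etv5). With the replicate number as a block, the log2 fold change of Gfra1 was −1.72, −1.36 and 0.36 (edgeR adjusted p = 0.122 in the last), and the counts of calls were as without the block. The calls of Etv5, Met and Slit2 on col1-ACLP held under all 20 alternatives for each. Counts of Gdnf, Gfra2 and Ret fell to 9, 9 and 4 reads in single libraries, and on col1 their coefficients of variation of 66.6%, 37.3% and 50.5% exceeded the 12.9%, 15.5% and 21.6% that counting error alone gives.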
